A study of Homo sapiens with 6 samples.

Results

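The formins are a family of actin-assembling proteins, and 10 formin genes were followed here by name: DIAPH1, DIAPH2, DIAPH3, DAAM1, DAAM2, FMNL1, FMNL2, FMNL3, INF2 and FHOD1. DIAPH3 encodes mDia2, the formin in the title of the series. All 10 were found, each as 1 row of 60612 gene rows, and 9 of them passed the filter on low values, as did 14708 rows in all. RNA was sequenced from 6 libraries of the human liver cancer line SNU-368, 3 carrying a control short hairpin RNA (shCtrl) and 3 a hairpin against TFAM (shTFAM). TFAM coats the DNA of mitochondria (mtDNA) and starts transcription from it. Protein, malonylation and location of mDia2 were not measured in these libraries, which give RNA levels. All groups share the same line and carry a hairpin; the labels do not say which hairpin sequence was used, how long the cells carried it or whether replicates were separate cultures. The spread behind each p-value may therefore be that of technical repeats. In bulk RNA, fewer cells with a transcript and less of it per cell cannot be told apart.

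A formin speeds the start of unbranched actin filaments and stays on their growing end. Its FH2 domain forms a ring on the filament, and its FH1 domain recruits actin bound to profilin. Diaphanous-type formins are folded shut until they are activated. mDia2 moves between cytoplasm and nucleus by importin and exportin, and it is known for assembling actin filaments in the nucleus, at filopodia and at the cleavage furrow.

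Libraries held 43286024 to 61058282 counts, with 7.91 to 14.2% of them on mtDNA. On the second principal component, which held 16.57% of the variance, shCtrl 3 stood apart at -45.6 from shCtrl 1 and 2 at 32.4 and 22.0. TFAM stood at 13.5, 12.3 and 14.8 FPKM in shCtrl and at 10.1, 10.1 and 8.47 FPKM in shTFAM, the groups not overlapping. FPKM are counts scaled to gene length and depth. The fall was 0.42 on the log2 scale (SE 0.107, edgeR adjusted p 0.0377), and it was called in 8 of 16 alternatives, with edgeR, limma or DESeq2 adjusted p up to 0.0948. Of 10 liver cell markers, 6 had 0 counts in every library, namely ALB, AFP, APOA1, APOB, TTR and GPC3, so these were not detected. HNF4A, under the filter, had 38, 76 and 121 counts in shCtrl and 114, 35 and 130 in shTFAM. SERPINA1 had 25 counts in shTFAM 3 and 0 elsewhere. Of the epithelial keratins, KRT8 rose, from 79.5 ± 8.51 to 114.6 ± 7.92 FPKM (n = 3 each, SD; log2 fold change 0.61, edgeR adjusted p 0.016), and was called in 14 of 16 alternatives. KRT18 stood at 174 ± 22.4 and 157 ± 10.7 FPKM and did not pass (edgeR adjusted p 0.724). The leukocyte markers PTPRC, CD3E and LYZ and the endothelial marker KDR also had 0 counts. CD68, a lysosomal marker of macrophages, had a log2 fold change of 1.43 (edgeR adjusted p 0.00892). Summed fibroblast markers stood at 24.5 to 37.5 and 37.3 to 40.8 FPKM, with COL1A2 at 0 counts and with DCN and PDGFRB higher in shTFAM. Most of each sum was COL1A1, at 29.4 ± 7.19 FPKM in shCtrl and 29.5 ± 2.77 FPKM in shTFAM (n = 3 each, SD). COL1A1 did not pass (edgeR adjusted p 0.779), nor did LUM (0.0924). COL3A1, under the filter, had 11 to 18 counts in shCtrl and 172 to 263 in shTFAM. The part of these marker genes in the formin changes was not tested.

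The formin family was dominated by 1 member, and 3 others rose when TFAM was reduced. DIAPH1 made up 58.0 ± 4.07% of the summed formin FPKM in shCtrl libraries and 57.05 ± 1.16% in shTFAM libraries (n = 3 each, SD). DIAPH3, DAAM1 and INF2 rose in shTFAM, by 0.69, 1.07 and 0.41 on the log2 scale. The 6 others tested did not pass, and none fell. Members called higher were thus 3 of 9, set beside 11.3% of all tested rows. This count was 1 (DAAM1) without shCtrl 2, without shTFAM 2 or without shCtrl 3 and shTFAM 3, and the call of INF2 ended in 13 of 16 alternatives. Members called lower were 0 of 9 by edgeR, also 0 at an unadjusted p under 0.05 and 0 by DESeq2, set beside 6.59% of all rows. The median log2 fold change was 0.24 over the 9 members and -0.015 over all rows. In FPKM, the groups did not overlap for 4 of the 9, all higher in shTFAM (DIAPH3, DAAM1, INF2 and FHOD1), against 18% of all rows higher without overlap and 25.7% lower.

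**Figure D1:**
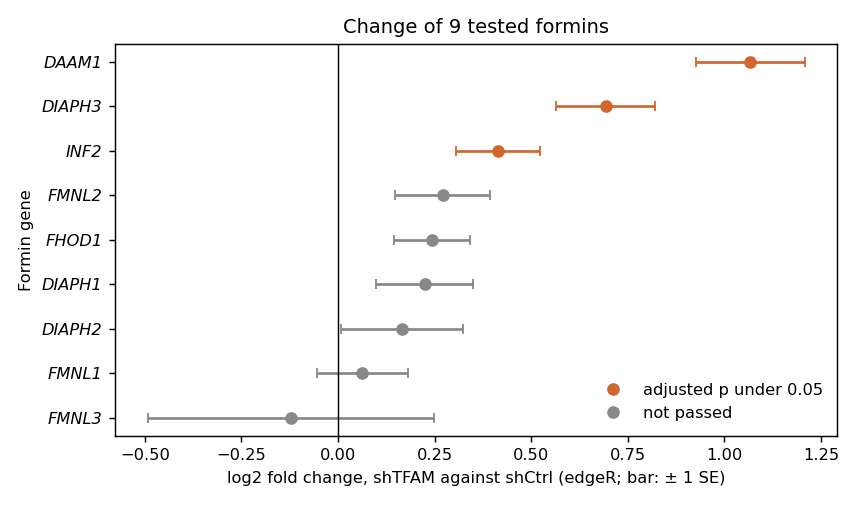
Log2 fold change of shTFAM against shCtrl (x axis) for the 9 tested formins (y axis), with bars of 1 SE from edgeR. DAAM1 at 1.07, DIAPH3 at 0.69 and INF2 at 0.41 passed an adjusted p of 0.05, and FMNL3 at -0.12 had the widest error.

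DIAPH3, encoding mDia2, lies on chromosome 13, 59665583 to 60163928, minus strand (ENSG00000139734; hg38). It stood at 2.81, 2.64 and 2.65 FPKM in shCtrl 1 to 3 and at 3.59, 4.58 and 4.19 FPKM in shTFAM 1 to 3. Every shTFAM library was above every shCtrl library, and the shCtrl libraries lay close together. These values rested on 1063 to 1169 counts in shCtrl and 1463 to 2262 in shTFAM. The rise was 1.62-fold (log2 fold change 0.69 with SE 0.129, edgeR adjusted p 0.0146). Across 15 alternatives it kept its direction, with values of 0.46 to 0.79, and it was called in 12. The call ended without shCtrl 2 (edgeR adjusted p 0.0564), without shTFAM 2 (0.0527) and without shCtrl 3 and shTFAM 3 together (0.0667). Of the 3 rows that overlap DIAPH3, the antisense genes DIAPH3-AS1 and DIAPH3-AS2 and a small RNA pseudogene, all had 0 counts in every library.

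DAAM1, which binds the Wnt adaptor Dishevelled, had the largest rise of the 9. It lies on chromosome 14, 59188646 to 59371405, plus strand (ENSG00000100592), and no other row overlaps it. It stood at 0.860, 1.09 and 0.993 FPKM in shCtrl 1 to 3 and at 1.85, 2.08 and 1.91 FPKM in shTFAM 1 to 3. The highest shCtrl library was well below the lowest shTFAM library. Counts were 475, 701 and 609 in shCtrl and 1103, 1216 and 1499 in shTFAM. The rise was 2.09-fold (log2 fold change 1.07 with SE 0.141, edgeR adjusted p 0.00495). It was called in all 15 alternatives in which it was tested, with adjusted p of 2.21e-09 (DESeq2) to 0.0278 (edgeR without shCtrl 3 and shTFAM 3).

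INF2, an endoplasmic reticulum-bound formin that both assembles and severs filaments and is known for its part in mitochondrial fission, is on chromosome 14, 104681146 to 104722535, plus strand (ENSG00000203485). It stood at 8.16, 6.96 and 6.74 FPKM in shCtrl and at 9.82, 8.51 and 9.18 FPKM in shTFAM, with a narrow gap between the groups. The rise was 1.33-fold (log2 fold change 0.41 with SE 0.109, edgeR adjusted p 0.0411). This call ended in 13 of 16 alternatives, among them all 6 that left out 1 library (edgeR adjusted p 0.0527 to 0.128) and the other scalings (0.0675 to 0.118). It held with DESeq2 (DESeq2 adjusted p 0.0129) and with both of the other filters that kept a minimum level (edgeR adjusted p 0.043 and 0.0452).

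Among the Diaphanous genes, DIAPH3 was the member that rose. DIAPH1 (mDia1), which builds stress fibres, lies on chromosome 5, 141515016 to 141619055. It stood at 51.9, 50.5 and 65.2 FPKM in shCtrl and at 58.1, 62.5 and 64.2 FPKM in shTFAM. Its highest value was that of shCtrl 3, so the groups overlapped (log2 fold change 0.22 with SE 0.125, edgeR adjusted p 0.247; without shCtrl 3, 0.34 and 0.0643). DIAPH2 (mDia3), on chromosome X, 96684663 to 97604997, stood at 1.85, 2.16 and 1.63 FPKM in shCtrl and at 1.82, 1.98 and 2.17 FPKM in shTFAM. These ranges lay almost on top of each other (0.17, SE 0.158, edgeR adjusted p 0.501). The ratio of 2 genes within a library does not depend on scaling to depth. In FPKM it does depend on the lengths of the genes. The deposited values imply 8.71 kb for DIAPH1, 11.3 kb for DIAPH2 and 8.74 kb for DIAPH3. DIAPH1 was 18.5, 19.2 and 24.6 times as high as DIAPH3 in the shCtrl libraries and 16.2, 13.6 and 15.3 times in the shTFAM libraries. DIAPH2 was 0.658, 0.820 and 0.614 times as high as DIAPH3 in shCtrl and 0.506, 0.432 and 0.518 times in shTFAM. Both ratios were lower in every shTFAM library than in any shCtrl library, differences that an exact permutation test of 3 against 3 cannot place below p = 0.1.

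**Figure D2:**
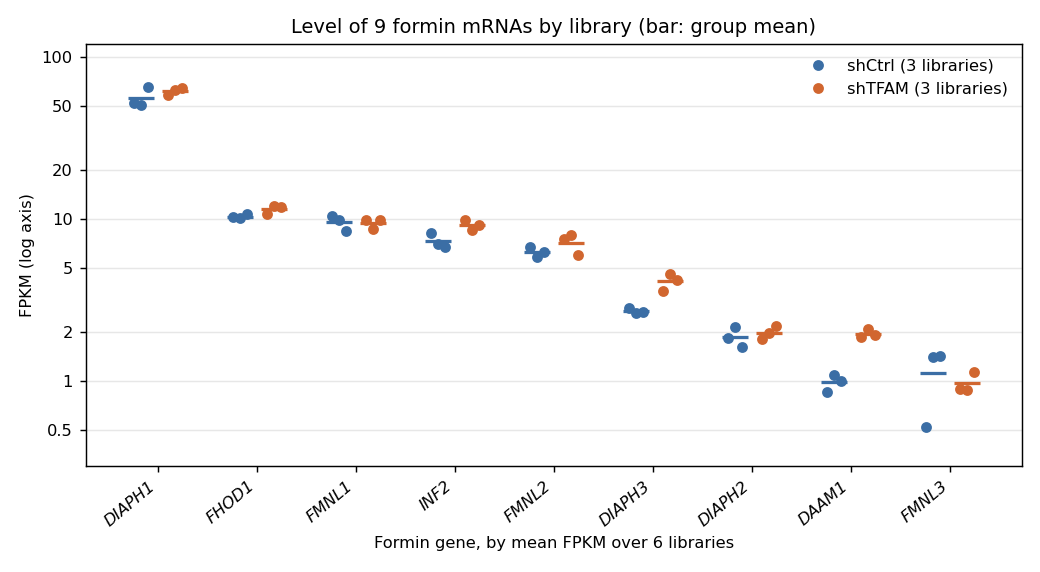
FPKM on a log axis (y) of 9 formins (x), with 1 point per library and a bar at each group's mean; DAAM2, with at most 16 counts in a library, is left out. The shTFAM points of DAAM1 and DIAPH3 lie above all their shCtrl points, while DIAPH2 and FMNL1 overlap and the shCtrl 1 point of FMNL3 lies far below the others.

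Upstream sequences were read for the 3 genes that rose and for DIAPH1, the most abundant member, to show what lies before the starts of formins that rose and of one that did not pass. They are the 250 bases before the first start that RefSeq lists for each gene (GRCh38.p14), on the gene's strand, 5′ to 3′. All 10 members matched an entry. Capitals mark CCAAT (bound by NF-Y) or ACGTG (the core of sites bound by HIF) on either strand; CACGTG is ACGTG read on both strands. INF2 has 4 starts listed and DIAPH3 and DAAM1 have 2 each, so 1 window does not cover all of them. The INF2 window lies inside the span that the deposited table gives for the gene. The windows of DIAPH1 and DAAM1 run partly into the spans of their genes.
DIAPH3, chr13:60163929-60164178, minus strand: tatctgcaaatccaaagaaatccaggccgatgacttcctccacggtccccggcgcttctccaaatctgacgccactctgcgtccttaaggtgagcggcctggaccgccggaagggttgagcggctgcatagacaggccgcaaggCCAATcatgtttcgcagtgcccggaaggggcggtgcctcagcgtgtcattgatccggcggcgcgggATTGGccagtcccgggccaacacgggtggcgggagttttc
DAAM1, chr14:59188417-59188666, plus strand: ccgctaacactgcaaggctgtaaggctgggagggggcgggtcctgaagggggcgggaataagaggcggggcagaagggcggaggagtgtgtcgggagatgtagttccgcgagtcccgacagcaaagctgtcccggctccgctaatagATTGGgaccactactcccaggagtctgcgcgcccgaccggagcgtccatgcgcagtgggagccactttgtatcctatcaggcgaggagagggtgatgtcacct
INF2, chr14:104689368-104689617, plus strand: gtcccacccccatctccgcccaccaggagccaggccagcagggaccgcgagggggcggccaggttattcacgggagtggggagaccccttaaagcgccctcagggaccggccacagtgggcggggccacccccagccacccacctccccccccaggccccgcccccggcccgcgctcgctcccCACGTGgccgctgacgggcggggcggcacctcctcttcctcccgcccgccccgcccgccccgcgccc
DIAPH1, chr5:141619001-141619250, minus strand: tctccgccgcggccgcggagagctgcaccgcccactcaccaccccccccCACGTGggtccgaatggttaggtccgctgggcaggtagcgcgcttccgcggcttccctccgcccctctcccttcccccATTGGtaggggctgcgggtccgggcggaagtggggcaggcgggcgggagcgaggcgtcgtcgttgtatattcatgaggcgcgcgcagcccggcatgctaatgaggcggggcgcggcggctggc
In these windows DIAPH3 held 2 CCAAT matches, whose far ends lie 106 and 40 bases before the start, and no ACGTG. DAAM1 held 1 CCAAT match and no ACGTG. The window of INF2 held CACGTG and no CCAAT, and that of DIAPH1 held both. Over the 10 members, CCAAT was found in 4 (DIAPH3, DAAM1, DIAPH1 and FHOD1), against 33% of 27305 promoters of the same length. ACGTG was found in 3 (INF2, DIAPH1 and DIAPH2), against 18.7% of promoters. The element TTTGAA, known from genes of the late cell cycle, was found in DIAPH2 alone (13.6% of promoters). An E2F site, searched as TTTCCCGC, TTTGGCGC or TTTCGCGC, was found in FHOD1 alone (2.38%), and the CArG box bound by SRF in none of the 10 (1.14%). The motifs do not overlap apart from both readings of CACGTG. So DIAPH3 and DAAM1, which rose, and DIAPH1 and FHOD1, which did not pass, shared the presence of CCAAT.

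The FMNL formins, which act in leukocytes, lamellipodia and filopodia, did not pass as single genes. FMNL1 (chromosome 17, 45221444 to 45247318) stood at 10.4, 9.87 and 8.47 FPKM in shCtrl and at 9.81, 8.69 and 9.87 FPKM in shTFAM (log2 fold change 0.063 with SE 0.118, edgeR adjusted p 0.744). The groups fully overlapped, and the sign turned under the other scalings. FMNL2 (chromosome 2, 152335174 to 152649826), a Cdc42 effector of the leading edge, stood at 6.72, 5.78 and 6.20 FPKM in shCtrl and at 7.46, 7.94 and 5.95 FPKM in shTFAM. Its shTFAM 1 and 2 libraries were above all shCtrl libraries and shTFAM 3 was not (0.27, SE 0.123, edgeR adjusted p 0.165). FMNL3 (chromosome 12, 49636499 to 49707405) stood at 0.519, 1.40 and 1.43 FPKM in shCtrl and at 0.896, 0.875 and 1.13 FPKM in shTFAM.

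For FMNL3, shCtrl 1 alone set the spread: it had 357 counts against 1130 and 1087 in the other shCtrl libraries. The log2 fold change was -0.12 with an SE of 0.371 (edgeR adjusted p 0.848), and -0.48 (0.149) without shCtrl 1. PRPF40B, which overlaps FMNL3 on the opposite strand over 7416 bases, was not low in that library, at 1248 counts against 1438 and 724 in shCtrl 2 and 3. A second DAAM gene, DAAM2 (chromosome 6, 39792298 to 39904877), had 12, 14 and 16 counts in shCtrl and 0, 4 and 12 in shTFAM. It did not pass the filter and was not tested; a count of 0 allows up to 3 counts. Over 5300 bases DAAM2 is overlapped by MOCS1 on the opposite strand, which fell by 1.33 on the log2 scale (edgeR adjusted p 0.0038). The part of MOCS1 reads in the few DAAM2 counts was not tested.

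FHOD1, a formin that bundles filaments in stress fibres, lies on chromosome 16, 67229387 to 67247481, minus strand. It stood at 10.3, 10.1 and 10.6 FPKM in shCtrl and at 10.8, 12.0 and 11.9 FPKM in shTFAM. The groups did not overlap, but shCtrl 3 and shTFAM 1 were close together (log2 fold change 0.24 with SE 0.098, edgeR adjusted p 0.126). SLC9A5 overlaps FHOD1 on the opposite strand over 9799 bases, with 246 to 454 counts in shCtrl and 473 to 831 in shTFAM, against 2743 to 4548 for FHOD1 over all libraries. Its part in the FHOD1 counts was not tested.

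The other formins of the genome were scarcely detected. FHOD3, the muscle-type relative of FHOD1, had 19 to 36 counts in shCtrl and 26 to 66 in shTFAM. FMN1 had 15 to 39 and 17 to 32 counts, GRID2IP had 7 counts in shTFAM 3 and 0 elsewhere, and FMN2 had 19 counts in shTFAM 1 and at most 2 elsewhere. None of these 4 passed the filter. Together they added at most 0.177 FPKM to a library's formin total.

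The share of each formin in the family total was taken from FPKM, which are scaled to a length for each gene. Shares and order between genes depend on these lengths. The deposited values imply 6.19 kb for FHOD1, 15.9 kb for FMNL3 and 16.1 kb for INF2, and how they were set is not given. The total over the 10 was 93.6, 90.5 and 104.0 FPKM in shCtrl 1 to 3 and 104.1, 109.1 and 110.5 FPKM in shTFAM 1 to 3. The shTFAM totals were higher in each library, but shCtrl 3 and shTFAM 1 were nearly level. In counts scaled by TMM factors the same total was 818 to 913 CPM in shCtrl and 970 to 1084 CPM in shTFAM. Scaled to counts outside mtDNA it was 965 to 1051 CPM in shCtrl and 1061 to 1119 CPM in shTFAM.

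Shares of 2 expressed formins shifted without overlap between the groups, both of them upward. DIAPH3 held 3.01, 2.91 and 2.55% in shCtrl and 3.45, 4.20 and 3.79% in shTFAM. Its mean share went from 2.82 ± 0.241% to 3.81 ± 0.378% (n = 3 each, SD), a gain of 0.99 percentage points. The share of DAAM1 was 0.919, 1.199 and 0.955% in shCtrl and 1.78, 1.91 and 1.73% in shTFAM, a gain of 0.78 points. INF2 held 7.63 ± 1.12% in shCtrl and 8.52 ± 0.837% in shTFAM (n = 3 each, SD), and the groups overlapped although INF2 itself was called higher. FHOD1 held 10.8 ± 0.48% and 10.7 ± 0.328%, FMNL1 at 10.1 ± 1.66% and 8.77 ± 0.745%, and FMNL2 at 6.51 ± 0.618% and 6.61 ± 1.06%, all with overlap. DIAPH2 held 1.98 ± 0.411% and 1.84 ± 0.112%, and FMNL3 1.16 ± 0.531% and 0.895 ± 0.115%. DAAM2 took 0.0192% and 0.00525%, which rest on the few counts given above.

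**Figure D3:**
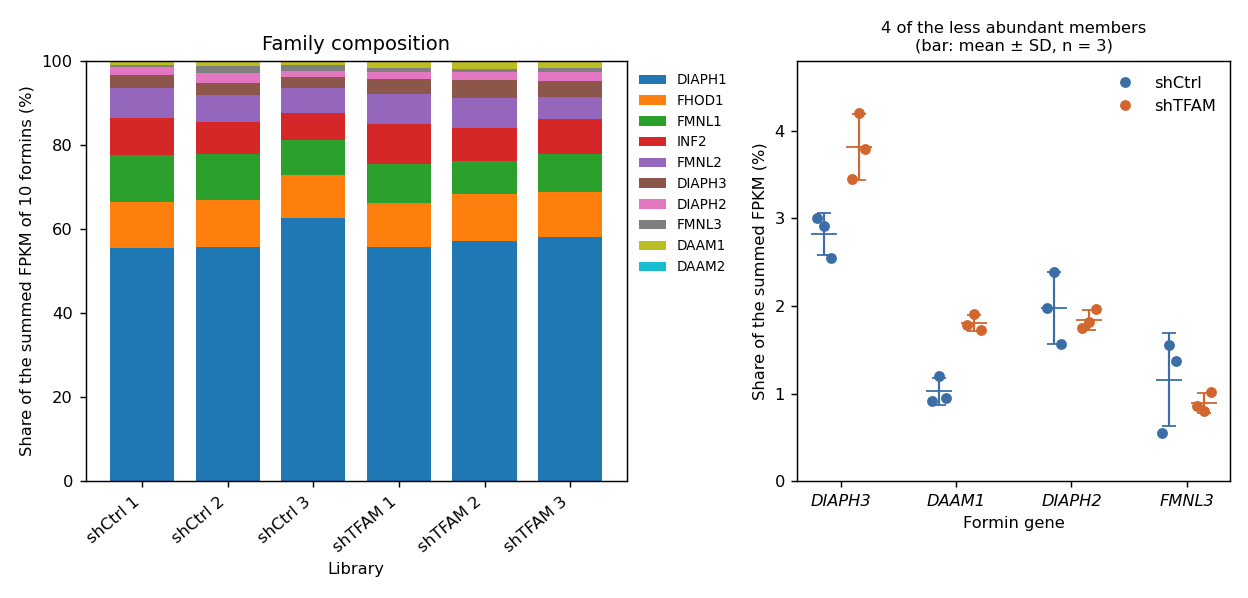
Left, share of each formin in the summed FPKM of the 10 (y axis, percent) in each library (x axis), stacked from the most abundant. Right, the shares of DIAPH3, DAAM1, DIAPH2 and FMNL3, with 1 point per library and the mean ± SD of 3; DIAPH3 (2.55 to 3.01% against 3.45 to 4.20%) and DAAM1 do not overlap between groups, and DIAPH1 fills 55.5 to 62.7% of every library's total.

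The share of DIAPH1 was 55.5, 55.8 and 62.7% in shCtrl and 55.8, 57.3 and 58.1% in shTFAM. It stood highest in shCtrl 3, the library that was apart on the second component, and each other share in that library is lowered by it. Without shCtrl 3 the difference in the DIAPH1 share turned from -0.97 to 1.38 points. Leaving DIAPH1 out of the total, DIAPH3 held 6.73 ± 0.124% in shCtrl and 8.89 ± 1.02% in shTFAM (n = 3 each, SD). On the same total DAAM1 held 2.45 ± 0.34% and 4.20 ± 0.225%. The share of FMNL1 was then 25.0, 24.7 and 21.8% in shCtrl and 21.3, 18.6 and 21.3% in shTFAM, lower without overlap.

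Sorted by FPKM, the order in shCtrl was DIAPH1, FHOD1, FMNL1, INF2, FMNL2, DIAPH3, DIAPH2, FMNL3, DAAM1 and DAAM2. The ranges of FHOD1 and FMNL1 overlapped, as did those of FMNL3 and DAAM1, and all other neighbours were apart. INF2 and FMNL2 were barely so, at 6.74 against 6.72 FPKM. In shTFAM, DAAM1 passed FMNL3 and lay level with DIAPH2, whose lowest value of 1.82 FPKM was under the highest of DAAM1 at 2.08 FPKM. FMNL1 and INF2 overlapped in that group. By FPKM, DIAPH3 was the sixth most abundant member in all 6 libraries, so its rise did not change its rank by FPKM. Raw counts give another order, since the deposited values imply lengths of 16.1 kb for INF2 and 6.19 kb for FHOD1. INF2 took 13.5% of formin counts in shCtrl against 7.63% of FPKM, and FHOD1 7.30% against 10.8%. In shCtrl 2, DIAPH2 had more counts than DIAPH3, at 1239 against 1169.

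Genes whose profile lay closest to that of DIAPH3 were found by the root mean square difference of log2 CPM over the 6 libraries, each gene taken from its own shCtrl mean. They were BISPR (0.018), BRWD3 (0.060), CALCOCO1 (0.066), ACBD5 (0.066) and RNF213 (0.066), in log2 units, against a median of 0.589 over all tested rows. Of the formins, INF2 was nearest, at 0.255 and rank 1238 of 14707 rows, and DAAM1 stood at 0.307 and rank 1939.

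Among 20 tested formin partners and inhibitors, 6 rose and none fell by edgeR, with 1 lower at an unadjusted p under 0.05 and 0 by DESeq2. Of all tested rows, 11.3% were called higher and 6.59% lower by edgeR. The scaffold anillin, ANLN, which binds mDia2 at the cleavage furrow, went from 32.8, 32.9 and 43.2 FPKM in shCtrl to 84.7, 99.1 and 121 FPKM in shTFAM. This was the largest rise of the list (log2 fold change 1.57 with SE 0.183, edgeR adjusted p 0.0036), and it was called in all 16 alternatives. IQGAP1, a scaffold that binds mDia1, rose by 0.50 (edgeR adjusted p 0.0171) and NCKIPSD, the mDia-interacting protein DIP, by 0.61 (0.0296). TRIP10, BAIAP2 and CAP1 were the other 3. Profilin PFN1, which feeds actin to formins, stood at 310 to 384 FPKM with full overlap (0.010, edgeR adjusted p 0.961). The profilin PFN2 stood at 21.1 to 28.6 FPKM in shCtrl and at 29.5 to 30.9 FPKM in shTFAM, without overlap. It did not pass (0.43, edgeR adjusted p 0.0628) and was called in 4 of 16 alternatives. The count of risen partners was 1 without shCtrl 1 or without shCtrl 2, 2 without shTFAM 1, 3 without shTFAM 2 or without shTFAM 3, and 4 without shCtrl 3. Scaling outside mtDNA gave 3 risen. SPIRE2, an actin nucleator that works with formins, was called lower in 4 of 15 alternatives, namely without shCtrl 3 (-0.46, edgeR adjusted p 0.0418), without shCtrl 3 and shTFAM 3 (-0.50, 0.0383), with library totals (-0.43, 0.0494) and with scaling outside mtDNA (-0.49, 0.038). With all libraries and TMM scaling it stood at -0.36 (edgeR adjusted p 0.0893).

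Carriers that take mDia2 and actin in and out of the nucleus were not called with all libraries and TMM scaling. Of 10 tested, 0 were higher and 0 lower by edgeR, beside 11.3% and 6.59% of all rows, with 0 at an unadjusted p under 0.05 and 0 by DESeq2. The importin subunits KPNB1 and KPNA2 stood at 58.4 ± 5.26 and 76.6 ± 17.3 FPKM in shCtrl and at 58.7 ± 2.36 and 79.5 ± 1.249 FPKM in shTFAM (n = 3 each, SD). KPNA2 was called higher without shCtrl 3 (0.32, edgeR adjusted p 0.0426) and without shCtrl 3 and shTFAM 3 (0.31, 0.0448), its highest value being that of shCtrl 3. Scaling outside mtDNA called the importin subunit KPNA4 lower (-0.29, edgeR adjusted p 0.0446). The exportin XPO1 had a log2 fold change of -0.034 (edgeR adjusted p 0.885) and the actin importin IPO9 of -0.038 (0.791). Of 5 tested genes of malonyl-CoA metabolism and lysine malonylation, none passed by edgeR, 1 was lower at an unadjusted p under 0.05 and 1 by DESeq2. That gene was SIRT5, which removes malonyl groups from lysine, at 2.77, 3.03 and 3.26 FPKM in shCtrl and 2.40, 2.26 and 1.77 FPKM in shTFAM (edgeR adjusted p 0.0879). SIRT5 was called lower by DESeq2 (adjusted p 0.0441) and by edgeR with scaling outside mtDNA (0.0487). Acetyl-CoA carboxylase ACACA had a log2 fold change of -0.23 (edgeR adjusted p 0.252) and fatty acid synthase FASN of -0.35 (0.195). MLYCD, also of this list, did not pass the filter, at 0.223 to 0.248 FPKM in shCtrl and 0.152 to 0.159 FPKM in shTFAM. It was tested in 2 alternatives and called in 0 of them (edgeR adjusted p 0.118 and 0.197).

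A further list held 15 genes, namely actins, SRF, its cofactors and SRF targets; the cofactors are released when formins use up free actin. Of the 15, 7 rose, and none fell by edgeR, also at an unadjusted p under 0.05 and by DESeq2. The edgeR counts stand beside 11.3% of all tested rows called higher and 6.59% called lower. ACTB stood at 369, 437 and 404 FPKM in shCtrl and at 636, 675 and 817 FPKM in shTFAM (0.90, edgeR adjusted p 0.00956). The filament crosslinker FLNA rose by 0.91 (edgeR adjusted p 0.00465), and the matricellular genes CCN1 and CCN2 by 1.04 (0.00438) and 1.61 (0.0064). SRF itself (0.49, edgeR adjusted p 0.052) and its cofactors MRTFA (0.26, 0.176) and MRTFB (0.92, 0.0558) did not pass. Also among the 8 that did not pass were TAGLN (0.19, edgeR adjusted p 0.504) and MYL9 (0.28, 0.16). DESeq2 called 12 of the 15 higher, beside 2173 of the 14708 tested rows.

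Mitotic genes stand beside the formins here because mDia2 and anillin act in cell division. Of 12, none fell by edgeR, also at an unadjusted p under 0.05 and by DESeq2, and 3 rose: MKI67 by 1.29 (edgeR adjusted p 0.0108), CDK1 by 0.51 (0.017) and TOP2A by 0.51 (0.0187), in log2 units. By edgeR, 11.3% of all tested rows were called higher and 6.59% lower. CCNB1, the cyclin of mitotic entry, stood at 93.4, 93.9 and 136 FPKM in shCtrl and at 100.2, 103 and 102 FPKM in shTFAM, and the mitotic kinase PLK1 had a log2 fold change of -0.036 (edgeR adjusted p 0.904). The summed level of the list was 463 to 599 FPKM in shCtrl and 559 to 630 FPKM in shTFAM. Without shCtrl 3 the count was 6, without shCtrl 3 and shTFAM 3 it was 5, and without shCtrl 1, shCtrl 2 or shTFAM 2 it was 1. The part of cell-cycle state in the DIAPH3 rise was not tested.

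**Figure D4:**
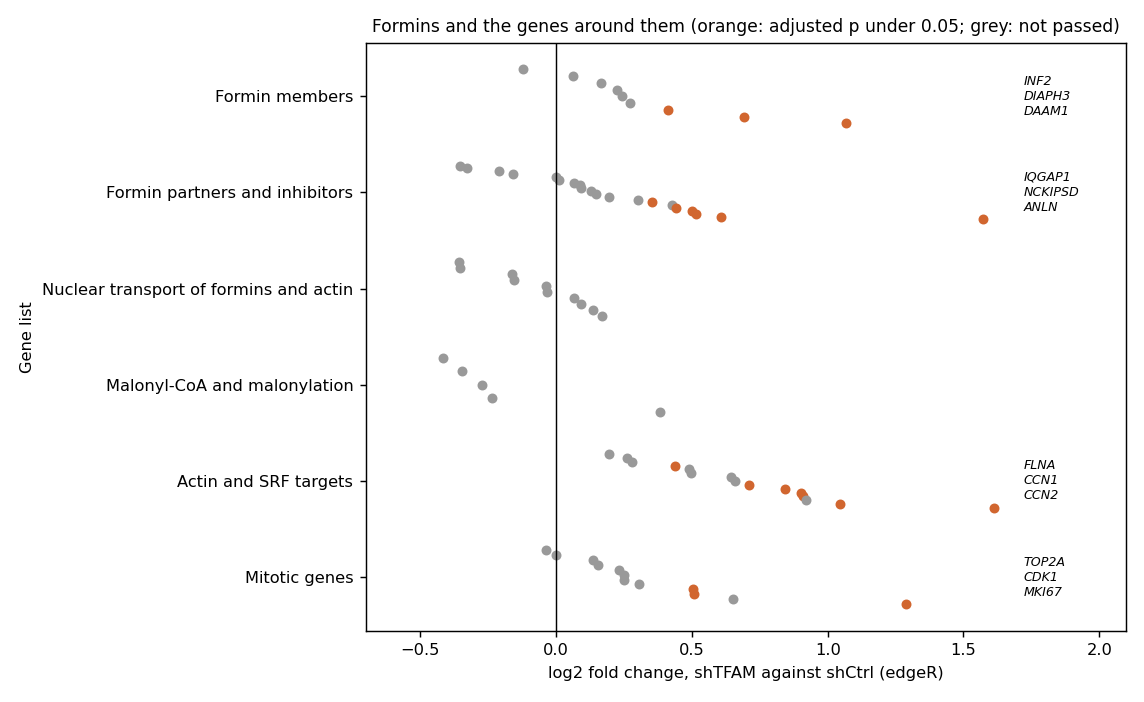
Log2 fold change (x axis) of each tested gene in the formin family and in 5 lists around it (y axis); orange points passed an adjusted p of 0.05, grey points did not, and up to 3 called genes per list are named at the right. Calls lie to the right of 0, and none is seen among nuclear transport and malonyl-CoA genes.

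**Figure D5:**
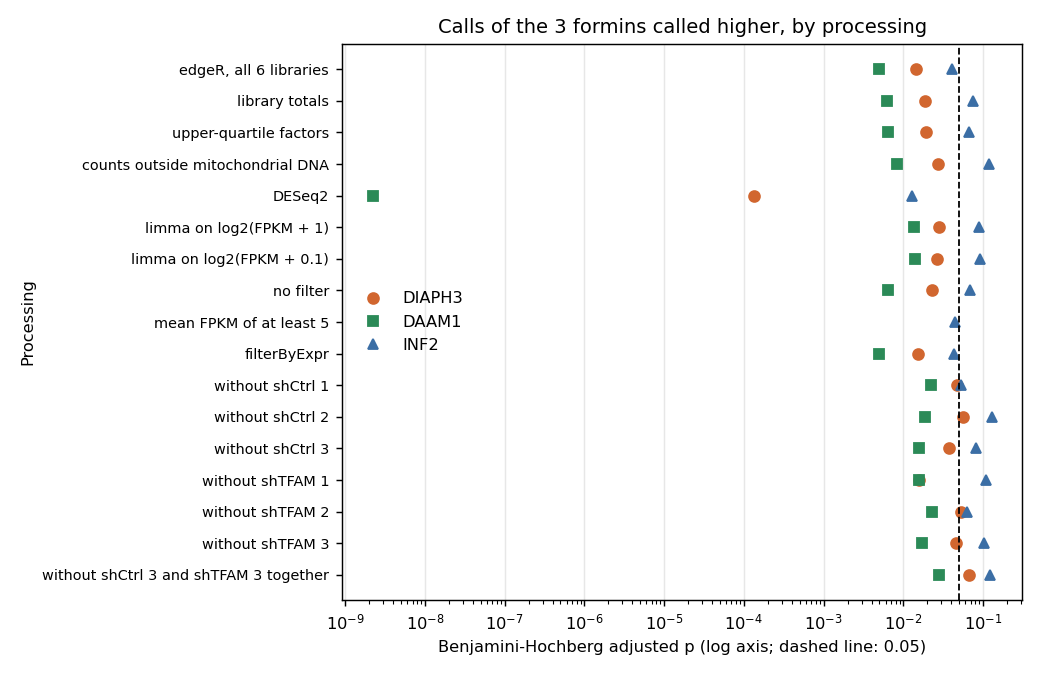
Adjusted p on a log axis (x) of DIAPH3, DAAM1 and INF2 under each processing (y axis), with a dashed line at 0.05. DAAM1 lies left of the line wherever it was tested, DIAPH3 crosses it in 3 settings, and INF2 lies right of it in 13 of 16.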

How the data were processed

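The authors deposited 1 table with whole-number counts and FPKM (counts scaled to gene length and library depth) for each gene and library, per the file headers. Poly(A) RNA was made into strand-keeping dUTP libraries and sequenced as paired reads, per the labels' protocols. The submitters' processing notes name cutadapt 1.9, Bowtie 0.12.2, HISAT2 2.0.4 and StringTie 1.3.4d with the builds hg38 and mm8, without roles. The counter, annotation and strand setting are not given in the sources used here, so overlapping genes may share reads. Of the row IDs found in GENCODE release 29 (GRCh38), 72.7% had identical coordinates, so positions are given as hg38.

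The treatment label set the groups, and sample titles matched the columns. Rows that averaged 0.5 FPKM or more (14708 rows, 99.4 to 99.5% of counts) were tested with edgeR 4.0.16 (R 4.3.3), quasi-likelihood, TMM factors of 0.951 to 1.04, two-sided, Benjamini-Hochberg over all rows at 0.05. SE is the log2 fold change over the root of F. CPM use TMM-scaled library sizes. DESeq2 1.42.0, limma 3.58.1, other scalings, filters and left-out libraries were the alternatives. Counts of 14708 genes were simulated in 3 runs. Over the runs, the test called 40% of 150 genes raised by 1 log2 unit and 0% of 150 raised by 0.5. It called 0.046% of 43524 unaltered genes, which were nearly all genes of the runs. In the deposited data, 2630 rows were called. The share of raised genes called where that many rows differ was not tested. No pair of replicates agreed within sampling noise (lowest chi-square per degree of freedom 31.2). Limits from counts cover counting error only. The members and gene lists were chosen with earlier results of these data known. Genes named are TFAM, all formins, up to 3 called genes per list by p (or the 2 most abundant where none was called) and the 5 nearest profiles to DIAPH3; others were chosen after their values were seen. Upstream motifs were chosen after the expression values were seen. Some of the listed markers and gene lists are not reported here.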

Additional observations from a re-analysis of the deposited data

How the results depend on the processing

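No paired analysis was possible because the sample titles share no replicate numbers between groups. The DIAPH3 log2 fold change was 0.62 to 0.79 with any 1 library left out, and 0.64 with shCtrl 3 and shTFAM 3 left out, where it was not called (edgeR adjusted p 0.0667). Members called higher were 3, and 1 with rows of at least 5 FPKM, where only 5 members were tested, 1 with shCtrl 3 and shTFAM 3 left out, and 1 to 2 with any 1 library left out; 0 were called lower throughout the 16 alternatives. All rows called were 2630, and 1148 to 2065 with any 1 library left out. Of these 2630, 1661 were higher and 969 lower, against 1353 and 1266 with library totals, 1387 and 1339 with upper-quartile factors, 1198 and 1771 with scaling outside mtDNA, and 1278 and 1337 with limma on log2(FPKM + 1). With scaling outside mtDNA, the median over all rows was -0.15 in place of -0.015 (log2). The sign of FMNL1 turned with library totals (-0.012), upper-quartile factors (-0.0033), scaling outside mtDNA (-0.072), limma with a pseudocount of 1 (-0.016) or 0.1 (-0.017) and shCtrl 3 and shTFAM 3 left out (-0.080), and spanned -0.031 to 0.13 with 1 library left out. That of FMNL3 spanned -0.48 to 0.086 with 1 library left out, and DIAPH2 stood at -0.026 without shCtrl 3 and shTFAM 3. The gain in DIAPH3 share was 2.16 points on a total without DIAPH1. With 1 library left out it was 0.80 to 1.17 points, that of DIAPH1 -2.22 to 1.38 points, and the difference in family total 9.13 to 15.9 FPKM. DIAPH3 and DAAM1 could not be tested among rows of at least 5 FPKM. The causes of these differences were not tested.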
